A study of Mus musculus with 8 samples.

Results

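The genes described here are those of 6 families of developmental transcription factors, the T-box (Tbx), LIM homeobox (Lhx), forkhead (Fox), Pax, Sox and sine oculis homeobox families, in oncogene-transformed mouse fibroblasts with and without the long noncoding RNA Neat1. Members were taken by gene symbol: Tbx, Sox, Lhx, Pax or the sine oculis prefix followed by a number, or Fox followed by a letter and a number. This gave 100 of the 23420 symbols in the count files: 45 Fox, 19 Sox, 13 Tbx, 9 Pax, 8 Lhx and 6 sine oculis symbols. No measured value entered the choice. The pattern also takes in Foxl2os, a noncoding transcript beside Foxl2 that encodes no factor, and it leaves out relatives with other names such as the T-box gene Eomes and the LIM homeobox gene Isl1.

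The study compared 4 RNA-seq libraries of Neat1 null cells with 4 of wild-type cells. Both genotypes were mouse embryonic fibroblasts (MEFs) on the C57BL6/N background, and both expressed the adenoviral oncoprotein E1A and the activated Ras protein HRasV12, so untransformed cells are not part of the comparison. Cells of both genotypes grew in DMEM with 10% FCS. The question is what losing Neat1, the RNA on which nuclear paraspeckles are built, does to expression in these transformed cells. The labels do not say whether the libraries of a genotype came from separate embryos or cultures, so p-values reflect only how much these libraries vary, part of which may be technical.

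Each of the 6 families shares a DNA-binding domain, and their members are best known for setting cell identity in the embryo. T-box factors pattern heart, limb and mesoderm. LIM homeobox factors act with the adaptor Ldb1 in neurons, limb and craniofacial mesenchyme, forkhead factors include pioneer, cell cycle and insulin-responsive regulators, Pax and sine oculis factors act together with Eya and Dach cofactors in sensory organs, muscle and kidney, and Sox factors bend DNA and direct crest, cartilage and neural fates. Fibroblasts keep part of the positional program of the embryonic mesenchyme they come from, and a mixed MEF culture can hold cells of several embryonic regions.

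The libraries held 19651035 to 38950207 counts in genes in Neat1 null cells and 31651625 to 37069334 in wild-type cells. Neat1 had 6.92, 11.3, 7.90 and 6.12 CPM, counts scaled to 1e6 per library, in Neat1 null libraries 1 to 4, against 138, 588, 753 and 1320 CPM in wild-type libraries 1 to 4, which matches the labels. The genotypes also differed in other measures. Xist and Y-linked genes marked Neat1 null libraries 1, 2 and 4 as male and Neat1 null library 3 and the 4 wild-type libraries as female, so the Neat1 null libraries were not all made from 1 embryo. Ribosomal protein genes took 7.41% to 20.9% of counts in Neat1 null and 5.41% to 6.38% in wild-type libraries. The slope of a library's expression on gene length ran between -0.477 and 0.00725 per doubling of exon length in Neat1 null and between 0.135 and 0.245 in wild-type libraries. The first principal component of all tested genes held 52.5% of the variance, and on it Neat1 null libraries 1 and 3 lay at -103.2 and -91.11, apart from libraries 2 and 4 at -16.87 and -28.35, while wild-type libraries lay between 17.18 and 92.05. Fibroblast markers summed to 2592 to 4035 CPM in Neat1 null and 1828 to 3403 CPM in wild-type libraries, most of it vimentin (Vim), while Pdgfra fell in Neat1 null libraries to 7.50 CPM, against 90.0 CPM in wild-type libraries (log2 fold change -3.59, adjusted p = 0.00806, edgeR). The other called gene of this list, S100a4, was higher, at 9.90 and 2.32 CPM in Neat1 null and wild-type libraries (2.08, adjusted p = 0.0473), with 29.0 CPM in Neat1 null library 1 and at most 4.28 CPM in the other 7. Col1a1 averaged only 2.50 and 5.47 CPM in Neat1 null and wild-type libraries.

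Of the 100 members, 58 passed the filter on low counts and were tested, 31 had some counts but did not pass it, and 11 had no count in any library. Of the 58, 9 passed an adjusted p of 0.05 (edgeR's quasi-likelihood test, Benjamini-Hochberg over all 13316 genes tested), which is 15.5%, against 17.7% of all genes tested. The share called was thus close to that of the whole transcriptome and is not a result about these families. By direction, 8 members (13.8%) were called lower in Neat1 null cells, where 7.72% of all genes were, and 1 member (1.72%) was called higher, where 9.97% of all genes were. The lower members were Tbx20, Tbx6, Lhx8, Lhx6, Lhx9, Foxp2, Foxa1 and Sox5, and the higher one was Six2. The median log2 fold change, Neat1 null minus wild-type, was -0.45 over the 58 tested members and -0.06 over all genes tested, and 41 of the 58 members but 52.2% of all genes had a negative value.

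For 15 members, 25.9% of those tested, all 4 Neat1 null values were below all 4 wild-type values, where 11.0% of all genes showed this. The reverse held for 0 members, where it held for 11.7% of all genes, and in either direction the groups were apart for 22.6% of all genes. These shares are descriptions, the 7.72% and 9.97% are also the background for each family and list count below, and members of a family were not treated as replicates. Within the Neat1 null group, library 3 held the lowest value of 28 and library 1 that of 20 of the 58 tested members, and those are the libraries that stood apart on the first principal component. Without both of them 1 member was called higher and 1 lower, and 7 genes were called in all. Without Neat1 null library 3, wild-type library 3 or wild-type library 4, only 13, 18 and 11 genes were called in all. A call lost in those fits, as given for many genes below, is therefore not particular to that gene. The median exon length was 7.15 kb for the 8 members called lower and 4.46 kb for all tested genes with a length. With a fit that took out each library's trend with gene length and GC content (the length and GC correction), 5 members were lower and 1 higher, and the median of the members was -0.31, against 0.09 for all genes. In RNA from whole cultures, fewer cells of a type and less RNA per cell cannot be told apart, so each difference below may be either.

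**Figure D1:**
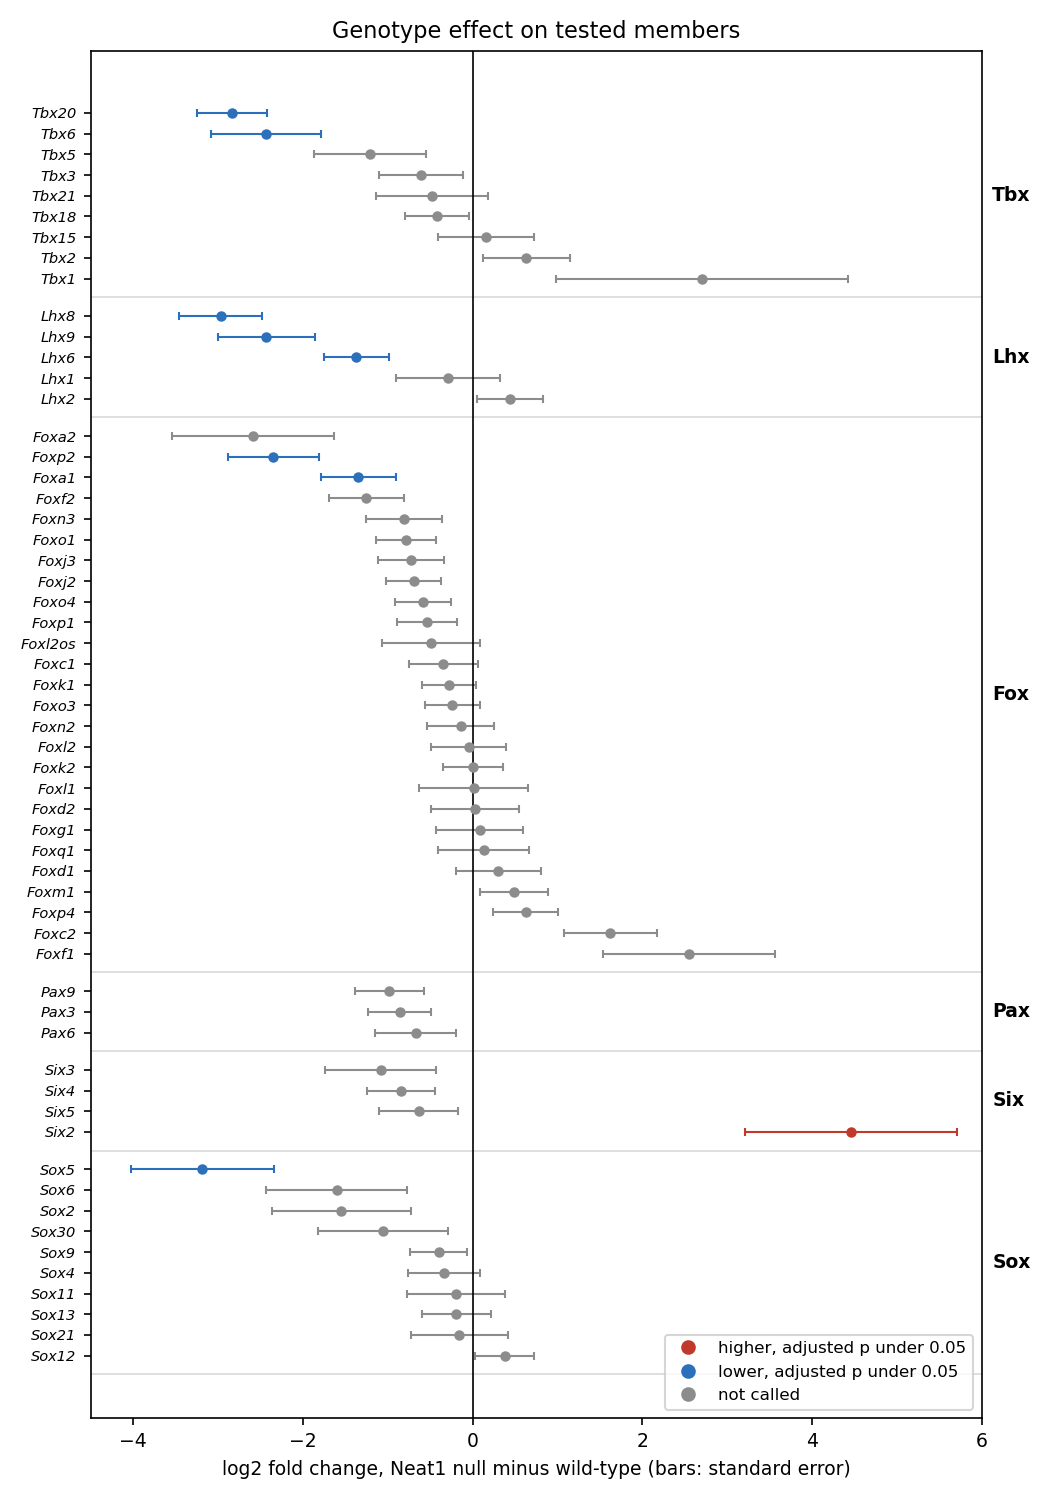
Log2 fold change of the tested members, 1 of which is not drawn (x axis, Neat1 null minus wild-type; bars are standard errors), ordered within each family down the y axis, with members past an adjusted p of 0.05 coloured. The 8 members called lower spread over the Tbx, Lhx, Fox and Sox families, Six2 is the 1 called higher, and 41 of the 58 tested members have a value below 0.

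Among T-box genes, 2 of 9 tested members fell and 0 rose in Neat1 null cells, with a family median of -0.48. Tbx20, a factor required for heart development in the mouse, had 4.76, 5.10, 2.19 and 7.47 CPM in Neat1 null libraries 1 to 4, against 38.3, 31.1, 30.4 and 39.9 CPM in wild-type libraries 1 to 4. The groups were far apart, the wild-type values were close together and Neat1 null library 3 was the lowest, and the Neat1 null mean was 14.0% of the wild-type mean (4.88 ± 2.16 and 34.9 ± 4.84 CPM, SD, n = 4 each). The log2 fold change was -2.84 (SE 0.41, adjusted p = 0.00806). Tbx20 was the only member called under all 17 alternatives, with adjusted p-values between 0.00313 and 0.0253 in the 8 fits that left out 1 library, and with -1.98 (adjusted p = 0.0349) after the length and GC correction. The gene spans chr9:24718138-24774303 on the minus strand of GRCm38, with 12.0 kb of exon sequence. Its promoter is printed because it is the member that separated the genotypes under every alternative. It covers 250 bases before to 50 after the RefSeq start (chr9:24774254-24774553, minus strand, GRCm38.p6), in lower case with matches to the GC box, GGGCGG on either strand, in capitals:
Tbx20: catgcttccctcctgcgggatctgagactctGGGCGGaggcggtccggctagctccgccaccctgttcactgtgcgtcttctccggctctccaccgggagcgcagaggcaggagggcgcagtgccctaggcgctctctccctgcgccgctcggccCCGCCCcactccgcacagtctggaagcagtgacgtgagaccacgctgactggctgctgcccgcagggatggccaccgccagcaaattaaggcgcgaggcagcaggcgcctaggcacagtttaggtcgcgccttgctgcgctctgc
The window holds 26 CpG dinucleotides, where the median of all 32851 RefSeq promoters of this length was 7, and 2 GC boxes, a motif found in 35.7% of them.

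Tbx6, a regulator of presomitic mesoderm, had 0.270, 0.323, 0.282 and 0.282 CPM in Neat1 null libraries, against 0.424, 1.22, 2.14 and 2.58 CPM in wild-type libraries. All Neat1 null values were near the filter minimum of 0.309 CPM and below every wild-type value, and wild-type library 1 was the low one of its group. The log2 fold change was -2.44 (SE 0.65, adjusted p = 0.0245). It passed the filter mainly through wild-type libraries and was lost without Neat1 null library 3, wild-type library 3 or wild-type library 4.

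Markers of heart cells were examined beside Tbx20. Of 4 tested genes of 7 listed, 0 were called. Among the fits that left out 1 library, 1 gene was called, lower, without Neat1 null library 1. The list summed to 19.6 to 101 CPM in Neat1 null and 30.4 to 51.3 CPM in wild-type libraries. The cardiac alpha myosin heavy chain gene Myh6 had 0 counts in all 8. The cardiac factor Nkx2-5, outside the naming rule and chosen after its values were seen, had 3.23, 3.90, 55.7 and 5.43 CPM in Neat1 null libraries, against 0.716, 6.92, 0.676 and 3.04 CPM in wild-type libraries. Only Neat1 null library 3 was high, and Nkx2-5 was not called (log2 fold change 2.59, SE 1.10, adjusted p = 0.123). The cardiac factor Gata4, named for the same reason, averaged 19.2 ± 15.4 and 25.1 ± 5.56 CPM in Neat1 null and wild-type libraries (SD, n = 4 each) and was not called.

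The most abundant T-box gene per exon length was Tbx15, a factor of skeletal and dermal mesenchyme, at a mean of 15.4 CPM per kb of exon over the 8 libraries. It had 121, 60.7, 9.31 and 52.1 CPM in Neat1 null libraries and 78.2, 29.3, 75.5 and 34.8 CPM in wild-type libraries, with overlapping groups and a log2 difference of 0.16 (SE 0.57, adjusted p = 0.860). Tbx2, a repressor known to delay senescence, stood at 7.55 CPM per kb, with 18.2, 13.8, 45.5 and 55.5 CPM in Neat1 null and 35.6, 14.3, 28.2 and 7.74 CPM in wild-type libraries. These groups overlapped too (0.63, SE 0.52, adjusted p = 0.391).

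Tbx1, a factor of the pharyngeal arches, varied widely within both genotypes. It had 75.6, 6.10, 60.3 and 0.690 CPM in Neat1 null libraries and 14.6, 0.177, 6.83 and 0.365 CPM in wild-type libraries. Libraries 1 and 3 were high and libraries 2 and 4 low in each genotype, a spread of 110-fold within Neat1 null and 82.5-fold within wild-type libraries, and the difference between genotypes did not pass (2.70, SE 1.72, adjusted p = 0.296). Without Neat1 null libraries 1 and 3 the log2 fold change was -0.66.

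The limb factor Tbx5 was at 8.35, 7.92, 0.318 and 3.01 CPM in Neat1 null libraries, against 9.33, 14.3, 12.0 and 9.47 CPM in wild-type libraries. The groups did not overlap, but Neat1 null library 3 was far below the other 3, and the test did not pass (-1.21, SE 0.66, adjusted p = 0.198). Its neighbour Tbx3, a repressor gene that ends 148 kb before the start of Tbx5 on chromosome 5, was also lowest in Neat1 null library 3, with 33.0, 31.1, 4.45 and 18.7 CPM in Neat1 null and 41.3, 23.0, 44.7 and 23.8 CPM in wild-type libraries (-0.61, SE 0.50, adjusted p = 0.389). Tbx4, the hindlimb factor, was too low to test under the filter used. It had 1, 108, 9 and 70 counts in Neat1 null and 2, 7, 7 and 7 counts in wild-type libraries, so Neat1 null libraries 2 and 4 were high and the other 6 low. Without a filter it was called higher (3.44, adjusted p = 0.0131), although the groups overlap.

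Among LIM homeobox genes, 3 of 5 tested members fell and 0 rose, and the family median was -1.37, where 7.72% of all genes fell and 9.97% rose. Lhx6 and Lhx8 are known together from forebrain interneurons and from the oral ectomesenchyme of the jaw. Lhx8 had 1.80, 1.70, 0.529 and 2.23 CPM in Neat1 null libraries, against 10.6, 14.4, 11.1 and 12.9 CPM in wild-type libraries. Every wild-type value was several times the highest Neat1 null value, and the log2 fold change was -2.97 (SE 0.49, adjusted p = 0.0179). Its call ended without wild-type library 4 (-2.95, adjusted p = 0.0514) and without Neat1 null libraries 1 and 3 (-2.65, adjusted p = 0.0851), and held under the other 15 alternatives.

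The promoter of Lhx8 is printed as the contrast to that of Tbx20, since both genes fell to about the same share of wild-type (12.8% for Lhx8). It covers the same window around the RefSeq start (chr3:154330511-154330810, minus strand, GRCm38.p6) and is all in lower case because none of the 6 motifs searched occurs in it:
Lhx8: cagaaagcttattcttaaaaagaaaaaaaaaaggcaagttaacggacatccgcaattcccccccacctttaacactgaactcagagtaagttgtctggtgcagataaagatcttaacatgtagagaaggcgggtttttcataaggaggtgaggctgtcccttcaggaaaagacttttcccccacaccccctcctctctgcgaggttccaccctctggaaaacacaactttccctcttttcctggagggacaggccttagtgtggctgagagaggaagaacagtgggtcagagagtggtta
It holds 4 CpG dinucleotides, against 26 in the Tbx20 window. The absence of these letters from 1 window says nothing about the binding of any factor.

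Lhx6 had 7.28, 15.6, 6.63 and 16.1 CPM in Neat1 null libraries, against 25.9, 31.1, 31.5 and 29.9 CPM in wild-type libraries. The wild-type values were close together, the Neat1 null values split into libraries 1 and 3 at the low end and libraries 2 and 4 above them, and the groups did not overlap (-1.37, SE 0.38, adjusted p = 0.0271). The call held in 3 of the 8 fits that left out 1 library. Without Neat1 null libraries 1 and 3 the log2 fold change was -0.91 and was not called. Lhx9, a factor of gonad and limb, had 0.988, 0.821, 0.423 and 1.13 CPM in Neat1 null libraries, against 1.72, 4.42, 5.38 and 6.57 CPM in wild-type libraries. These groups did not overlap either, and wild-type library 1 lay nearest the Neat1 null values (-2.43, SE 0.58, adjusted p = 0.0190). After the length and GC correction Lhx9 had -1.67 and missed the threshold (adjusted p = 0.0517), whereas Lhx6 kept -1.35 (adjusted p = 0.0489) and Lhx8 had -3.21 (adjusted p = 0.0349).

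Lhx2, a factor of limb bud and hair follicle, did not share the direction of these 3, with 12.7, 8.65, 7.90 and 8.79 CPM in Neat1 null and 6.39, 4.71, 7.15 and 9.74 CPM in wild-type libraries (0.44, SE 0.39, adjusted p = 0.437). Lhx1 stayed below 1 CPM in every library and was not called, and Lhx3, Lhx4 and Lhx5 were too low to test. Per kb of exon, wild-type levels ran Lhx6 (6.16 CPM per kb), Lhx8 (4.84), Lhx2 (1.59), Lhx9 (0.477) and Lhx1 (0.131). In Neat1 null libraries they ran Lhx6 (2.38 CPM per kb), Lhx2 (2.16), Lhx8 (0.618), Lhx1 (0.106) and Lhx9 (0.0885).

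Because Lhx6 and Lhx8 are also neuronal genes, neuronal markers are given beside them. Of the 10 listed, 5 were tested, 2 (Syt1, a synaptic vesicle calcium sensor, and Map2, a microtubule protein of dendrites) were lower and 0 higher in Neat1 null cells. With DESeq2 or without wild-type library 1, 1 was called higher. Tubb3 (1.68, adjusted p = 0.108) and Syp (0.47, adjusted p = 0.62) had positive values and were not called. The list summed to 10.6 to 29.6 CPM in Neat1 null and 31.8 to 71.7 CPM in wild-type libraries, mostly Map2, and Dcx had 0 counts in all 8. After the length and GC correction Map2 had -0.58 and was not called (adjusted p = 0.279). Glial and neural crest markers gave 2 lower (Erbb3 and Mbp) and 0 higher of 6 tested. They summed to 5.66 to 8.38 CPM in Neat1 null and 9.25 to 41.4 CPM in wild-type libraries. Erbb3 had 4.16, 27.0, 28.3 and 34.4 CPM in wild-type libraries 1 to 4, against 2.43, 4.81, 2.61 and 5.84 CPM in Neat1 null libraries, so the groups overlapped. Ngfr had a positive value and was not called (1.43, adjusted p = 0.137). In both lists 0 genes were called without Neat1 null library 3, wild-type library 3 or wild-type library 4. The part of such cells in the Lhx result was not tested.

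**Figure D2:**
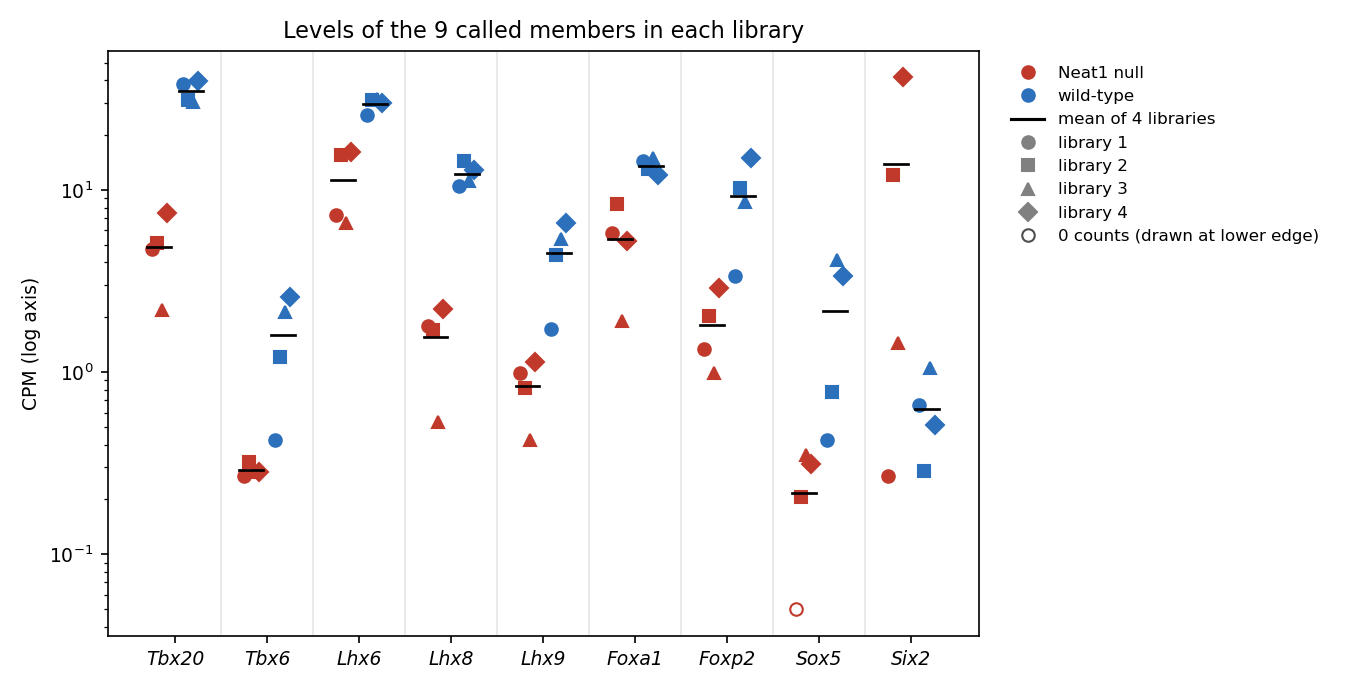
CPM on a log axis of the 9 members past the threshold in each of the 4 Neat1 null (left of each pair) and 4 wild-type libraries, 1 point per library with a bar at the group mean. The groups do not overlap for the 8 lower members. They do for Six2, where Neat1 null library 1 (0.270 CPM, 3 counts) lies close to the lowest wild-type library.

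Cofactors and relatives of these families that the symbol pattern leaves out were counted from a separate list. Of 24 tested of 30 listed, 5 fell and 0 rose, with a median of -0.38. The corepressor gene Tle2 averaged 0.845 CPM in Neat1 null and 11.6 CPM in wild-type libraries (-3.79, SE 0.74, adjusted p = 0.0180). Ldb2, a LIM-domain-binding adaptor, averaged 0.740 and 5.19 CPM in Neat1 null and wild-type libraries (-2.77, SE 0.62, adjusted p = 0.0185), and the LIM homeobox gene Isl1 averaged 2.07 and 8.54 CPM (-2.04, SE 0.54, adjusted p = 0.0242). The sine oculis cofactor genes Eya1 (-1.54, adjusted p = 0.0402) and Dach2 (-1.61, adjusted p = 0.0423) were the other 2, named after their values were seen. Ldb1, the main partner of LIM homeobox factors, had 148 and 129 CPM in Neat1 null and wild-type libraries and was not called (0.20, adjusted p = 0.706). Without Neat1 null library 3, wild-type library 3 or wild-type library 4, 0 genes of this list were called.

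Among the forkhead genes, 2 of 26 tested members fell and 0 rose, with a median of -0.26. Foxp2, a repressor known for its role in brain and lung, had 1.35, 2.02, 0.988 and 2.89 CPM in Neat1 null libraries, against 3.39, 10.2, 8.58 and 15.0 CPM in wild-type libraries. The groups did not overlap, though wild-type library 1 lay close to Neat1 null library 4 (-2.35, SE 0.54, adjusted p = 0.0186). With 16.4 kb of exon sequence Foxp2 is the longest of the called members, and after the length and GC correction it had -1.37 and was not called (adjusted p = 0.0777). Foxa1, a pioneer factor that opens chromatin in endodermal and epithelial cells, had 5.84, 8.39, 1.90 and 5.27 CPM in Neat1 null libraries, against 14.4, 13.0, 15.1 and 12.0 CPM in wild-type libraries. All 4 Neat1 null values were below the lowest wild-type value, and library 3 was the lowest (-1.35, SE 0.44, adjusted p = 0.0478). Its call held in 6 of 17 alternatives and in 1 of the 8 fits that left out 1 library. Epithelial markers, given beside it, had 0 of 6 tested genes called (1 higher without Neat1 null library 2 or without wild-type library 1) and summed to 251 to 3183 CPM in Neat1 null and 195 to 634 CPM in wild-type libraries, mostly keratin 18 (Krt18). Their part in the Foxa1 result was not tested.

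The promoter of Foxa1 is shown because it is the 1 promoter that carries a forkhead motif among those matched to called members. In the window chr12:57546062-57546361 (minus strand, GRCm38.p6, RefSeq) the capitals mark the forkhead motif GTAAACA and 3 GC boxes, GGGCGG or its reverse complement:
Foxa1: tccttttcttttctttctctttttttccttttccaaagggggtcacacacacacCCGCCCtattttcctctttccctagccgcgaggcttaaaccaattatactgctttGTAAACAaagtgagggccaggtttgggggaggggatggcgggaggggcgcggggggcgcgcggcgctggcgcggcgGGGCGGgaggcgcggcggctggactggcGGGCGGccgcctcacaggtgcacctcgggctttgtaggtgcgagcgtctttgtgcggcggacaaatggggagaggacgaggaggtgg
The forkhead motif was found, on either strand, in 3.65% of all promoters and in 2.20% of the 91 promoters of members, so its presence here describes the sequence and is not evidence of a site.

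The forkhead genes with the highest level per exon length did not separate by genotype. Foxk2, a ubiquitous forkhead repressor, was the highest of all members at 32.6 CPM per kb, and its means of 172 ± 54.4 CPM in Neat1 null and 171 ± 35.3 CPM in wild-type libraries (SD, n = 4 each) gave a log2 difference of 0.00 (SE 0.36, adjusted p = 0.995). Foxp4, at 18.6 CPM per kb, had 113, 55.8, 188 and 87.2 CPM in Neat1 null and 69.4, 85.3, 63.5 and 70.2 CPM in wild-type libraries, higher in Neat1 null libraries 1, 3 and 4 but overlapping (0.62, SE 0.38, adjusted p = 0.246).

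Foxm1, which drives genes of mitosis, stood at 17.8 CPM per kb. It had 94.4, 90.9, 187 and 104 CPM in Neat1 null libraries and 122, 110, 39.8 and 69.1 CPM in wild-type libraries. Neat1 null library 3 was far above the other 3, the groups overlapped and the test did not pass (0.49, SE 0.40, adjusted p = 0.400). Of 12 known Foxm1 targets tested, 3 rose and 0 fell, with a median of 0.47. They were Birc5, the survivin gene, with means of 262 and 70.8 CPM in Neat1 null and wild-type libraries (1.89, SE 0.51, adjusted p = 0.0245), the centromere histone gene Cenpa with 214 and 88.2 CPM (1.28, SE 0.38, adjusted p = 0.0344), and the cyclin kinase subunit gene Cks1b (1.24, SE 0.38, adjusted p = 0.0368). None of the 3 was called without Neat1 null library 1, Neat1 null library 3, wild-type library 3 or wild-type library 4, and Cks1b had 0.59 after the length and GC correction (adjusted p = 0.159). Birc5 was highest in Neat1 null library 1, at 541 CPM, where Foxm1 had 94.4 CPM. Cenpf (-0.72, adjusted p = 0.321) and Cdc25b (-0.14, adjusted p = 0.814) had negative values and were not called.

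Foxo1, the insulin-responsive forkhead factor, had 25.1, 20.3, 10.2 and 23.4 CPM in Neat1 null libraries, against 28.1, 40.7, 35.4 and 32.0 CPM in wild-type libraries. The groups did not overlap, by a small margin, and the test did not pass (-0.79, SE 0.35, adjusted p = 0.124). Foxo3 and Foxo4 overlapped between genotypes and were not called. Of 15 tested FoxO targets of 16 listed, 3 fell and 0 rose, with a median of -0.68: the stress-inducible gene Gadd45a (means of 4.23 and 26.1 CPM in Neat1 null and wild-type libraries, -2.62, SE 0.51, adjusted p = 0.0180), the insulin receptor gene Insr (40.5 and 122 CPM, -1.60, SE 0.39, adjusted p = 0.0200), and Pik3ip1, an inhibitor of phosphoinositide 3-kinase (-1.77, SE 0.49, adjusted p = 0.0264). Gadd45a is also a target of p53. These 3 calls ended without Neat1 null library 3, wild-type library 3 or wild-type library 4, and that of Insr also after the length and GC correction (-0.82, adjusted p = 0.0575). Klf2 (2.23, adjusted p = 0.0726), Sod2 (0.71, adjusted p = 0.149) and Bbc3 (0.47, adjusted p = 0.458) had positive values and were not called. With DESeq2, without Neat1 null library 2, without wild-type library 1 and after the length and GC correction, 1 target was called higher.

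Foxj2, Foxj3 and Foxf2 were the other forkhead genes whose groups did not overlap and that were not called in the main fit. Foxj2 had 18.9, 21.2, 15.6 and 23.9 CPM in Neat1 null libraries, against 28.3, 41.6, 28.6 and 30.2 CPM in wild-type libraries (-0.70, SE 0.32, adjusted p = 0.134). Foxj3 had 36.6, 60.3, 17.0 and 56.0 CPM in Neat1 null libraries, against 82.8, 64.1, 60.4 and 74.1 CPM in wild-type libraries (-0.73, SE 0.39, adjusted p = 0.189). For both Foxj2 and Foxj3, Neat1 null library 3 was the lowest of the 8.

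The members nearest to the threshold on its outer side were forkhead genes of mesenchyme, with no claim attached to them. Foxc2, a factor of vessels and lymphatics, had 7.01, 5.34, 21.5 and 8.44 CPM in Neat1 null and 3.10, 1.35, 5.97 and 3.31 CPM in wild-type libraries (1.62, SE 0.55, adjusted p = 0.0529). Foxf2 had 2.34, 6.10, 3.35 and 4.99 CPM in Neat1 null and 6.63, 8.35, 13.7 and 11.6 CPM in wild-type libraries (-1.25, SE 0.44, adjusted p = 0.0607), with no overlap. The members nearest to it on the inner side were Foxa1 (adjusted p = 0.0478) and Six2 (adjusted p = 0.0371), so small changes in the fit decide on which side of the threshold these 4 fall. Without Neat1 null library 2, Foxc2 (1.86, adjusted p = 0.0347) and Foxf2 (-1.48, adjusted p = 0.0456) were called, and Foxf2 also without wild-type library 1 (-1.39, adjusted p = 0.0422), while Foxc2 had 1.03 without Neat1 null library 3. Foxf1, a lung and gut mesenchyme factor 28.0 kb from Foxc2 on chromosome 8, was low, with 0, 3.58, 0.635 and 0.722 CPM in Neat1 null and 0.345, 0.0221, 0.396 and 0.0974 CPM in wild-type libraries (2.55, SE 1.01, adjusted p = 0.0879), and it was called without Neat1 null library 1 (2.94, adjusted p = 0.0457) and had 1.17 without Neat1 null library 2. Neat1 null library 2 was its high library, whereas Foxc2 was highest in Neat1 null library 3.

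**Figure D3:**
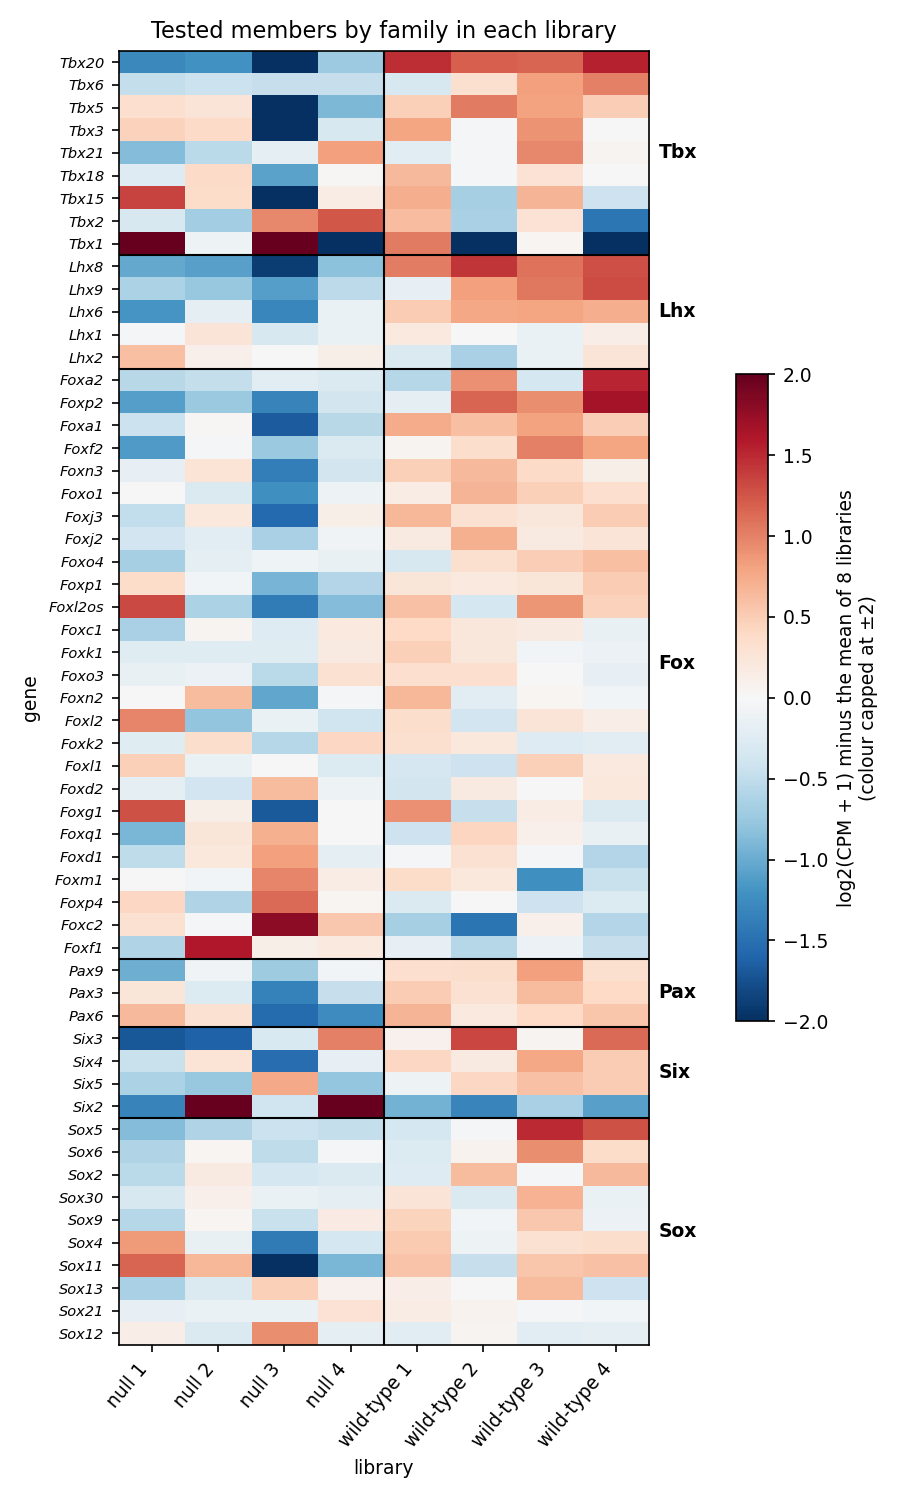
Level of the tested members, 1 of which is not drawn, in each library, as log2(CPM + 1) minus the mean of the 8 libraries (colour capped at 2 in either direction; genes down the y axis by family, Neat1 null libraries 1 to 4 left of wild-type libraries 1 to 4). Neat1 null library 3 holds the lowest Neat1 null value of 28 of the 58 members and library 1 that of 20.

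None of the 3 tested Pax genes was called, although for 2 of them the groups did not overlap. Pax3, a factor of neural crest and muscle precursors, had 29.3, 20.2, 9.07 and 17.6 CPM in Neat1 null libraries, against 35.5, 30.8, 38.6 and 32.8 CPM in wild-type libraries. Wild-type values were tight and Neat1 null values spread below them (-0.86, SE 0.37, adjusted p = 0.111). Pax9, a factor of pharyngeal pouches, teeth and sclerotome, had 3.50, 7.39, 4.37 and 7.47 CPM in Neat1 null libraries, against 10.2, 10.3, 14.6 and 9.98 CPM in wild-type libraries (-0.98, SE 0.40, adjusted p = 0.0972). Pax6, the eye and pancreas factor, had 26.4, 20.4, 5.01 and 6.31 CPM in Neat1 null libraries, which overlapped the 19.0 to 26.9 CPM of the wild-type libraries (-0.67, SE 0.48, adjusted p = 0.325). Pax4 and Pax8 had no count in any library, and the other 4 Pax genes were too low to test. The skeletal muscle markers Myod1 and Myf5, genes acting after Pax3 in muscle precursors, had 0 counts in all 8 libraries.

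Among the sine oculis genes 1 of 5 tested members rose and 0 fell, with a median of -0.64. Six2, which maintains nephron progenitors and is active in craniofacial mesenchyme, had 0.270, 12.1, 1.45 and 41.6 CPM in Neat1 null libraries, against 0.663, 0.287, 1.05 and 0.511 CPM in wild-type libraries. Neat1 null libraries 2 and 4 were high, library 3 was just above the wild-type range, and library 1, with only 3 counts, was close to the lowest wild-type library. The means were 13.8 ± 19.2 CPM in Neat1 null and 0.627 ± 0.320 CPM in wild-type libraries (SD, n = 4 each), and the log2 fold change was 4.46 (SE 1.25, adjusted p = 0.0371). The call thus rests on 2 of 4 libraries. It held in 3 of the 8 fits that left out 1 library, with 2.89 (adjusted p = 0.0415) without Neat1 null library 4. It ended with library sex as a term (1.20, adjusted p = 0.532), and Neat1 null libraries 2 and 4 were both male, as was library 1.

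The promoter of Six2 is shown as that of the 1 member called higher (chr17:85688205-85688504, minus strand, GRCm38.p6, RefSeq), with its 3 GC boxes in capitals:
Six2: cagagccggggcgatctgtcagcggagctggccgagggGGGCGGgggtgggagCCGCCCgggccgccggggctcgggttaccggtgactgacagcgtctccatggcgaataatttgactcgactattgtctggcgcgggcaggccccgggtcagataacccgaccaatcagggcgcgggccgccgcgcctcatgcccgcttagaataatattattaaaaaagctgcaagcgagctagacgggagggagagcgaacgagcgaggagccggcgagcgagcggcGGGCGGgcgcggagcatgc
Its 37 CpG dinucleotides are the most among the 4 promoters printed. Tested members had a median of 17.5 CpG dinucleotides per promoter, members not tested 12 and all promoters 7.

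Six3, a forebrain and eye factor 55.0 kb from Six2 on chromosome 17, did not follow it. It had 1.53, 1.64, 5.57 and 15.4 CPM in Neat1 null and 7.63, 19.5, 7.46 and 16.9 CPM in wild-type libraries, below the wild-type range in Neat1 null libraries 1, 2 and 3 and inside it in library 4 (-1.08, SE 0.65, adjusted p = 0.241). Without Neat1 null library 4 it had -2.14 and was called lower (adjusted p = 0.0278). Six4, a factor of muscle precursors and sensory placodes, lay lower in Neat1 null libraries 1, 3 and 4 than in any wild-type library but overlapped in library 2 (-0.85, SE 0.40, adjusted p = 0.140). Six5 had 4.67, 4.20, 13.9 and 4.14 CPM in Neat1 null and 7.24, 10.8, 12.3 and 11.5 CPM in wild-type libraries, with Neat1 null library 3 alone above the wild-type range (-0.64, SE 0.47, adjusted p = 0.336). After the length and GC correction Six5 was called lower (-1.12).

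**Figure D4:**
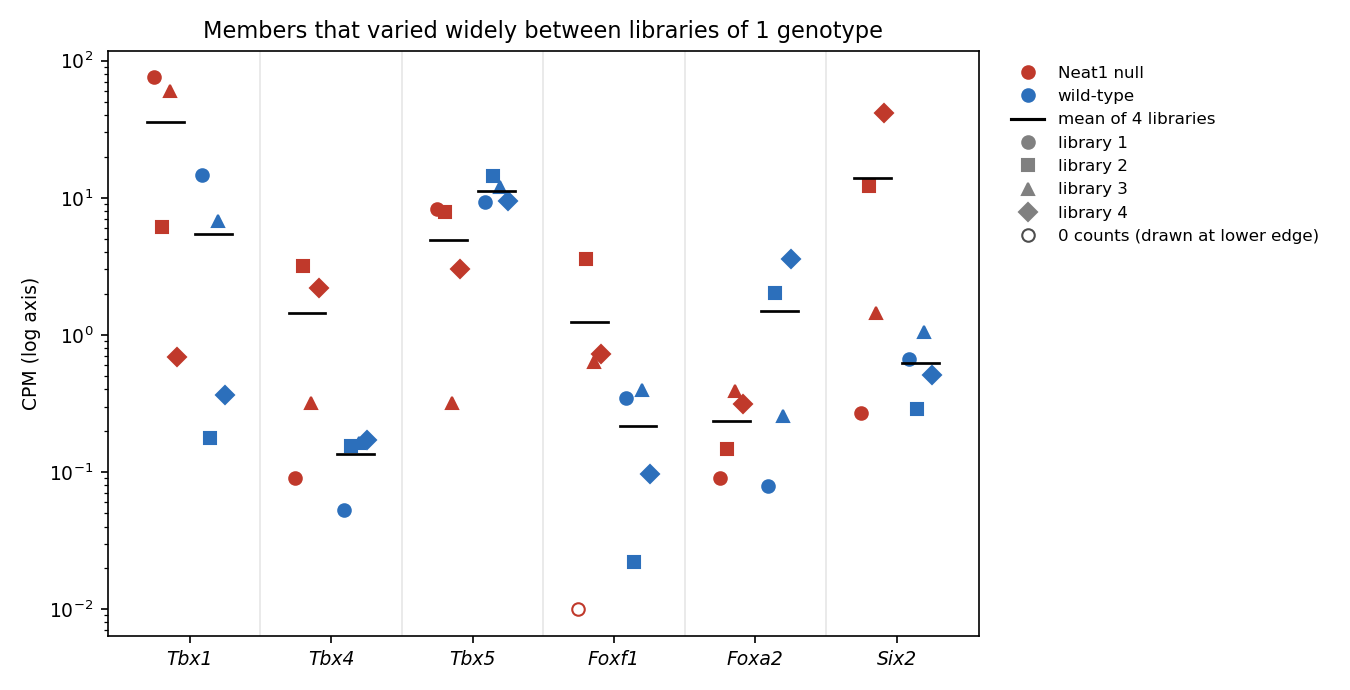
CPM on a log axis of members that differed widely between libraries of 1 genotype, with the 4 Neat1 null libraries left of the 4 wild-type libraries for each gene. Tbx1 spans 110-fold within Neat1 null and 82.5-fold within wild-type libraries, and Six2 spans 0.270 to 41.6 CPM within Neat1 null libraries.

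Among Sox genes 1 of 10 tested members fell and 0 rose, with a median of -0.37. Sox5, a partner of Sox9 and Sox6 in cartilage and also a neuronal factor, had 0, 0.205, 0.353 and 0.314 CPM in Neat1 null libraries, against 0.424, 0.773, 4.12 and 3.38 CPM in wild-type libraries. Neat1 null libraries were all near or below the filter minimum, and wild-type libraries 3 and 4 carried most of the wild-type level (-3.19, SE 0.85, adjusted p = 0.0240). Without wild-type library 3 it had -2.68 and without wild-type library 4 -2.90, neither of them called, and after the length and GC correction it had -2.06 (adjusted p = 0.126). Sox5 passed the filter on low counts mainly through the wild-type libraries. Sox6, its close relative, had values up to 0.557 CPM in Neat1 null and up to 1.91 CPM in wild-type libraries and did not pass (-1.60, SE 0.83, adjusted p = 0.177).

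The most abundant Sox genes overlapped between genotypes and were not called. Sox9, the cartilage and crest factor, was the highest of the family at 18.3 CPM per kb, with 48.9, 75.8, 53.8 and 82.5 CPM in Neat1 null and 99.9, 70.6, 106 and 67.8 CPM in wild-type libraries (-0.40, SE 0.33, adjusted p = 0.401). Sox4 had 106, 52.4, 21.1 and 45.0 CPM in Neat1 null and 84.0, 54.0, 71.6 and 73.9 CPM in wild-type libraries (-0.34, SE 0.42, adjusted p = 0.581). Sox12, which belongs with Sox4 to the SoxC group of progenitor factors, had 58.2, 43.2, 102 and 45.9 CPM in Neat1 null and 45.4, 54.9, 45.4 and 46.0 CPM in wild-type libraries (0.38, SE 0.35, adjusted p = 0.449). Neat1 null library 3 was the lowest for Sox4 and the highest for Sox12. Of 6 tested cartilage targets of Sox9, of 11 listed, 1 fell and 0 rose, with a median of -0.98. It was the collagen gene Col11a1, with 10.1 and 64.1 CPM in Neat1 null and wild-type libraries (-2.67, SE 0.54, adjusted p = 0.0180), and it was not called without Neat1 null library 3, wild-type library 3 or wild-type library 4. The 6 cartilage markers are all among these targets and give no separate view; 1 was tested, and they summed to 2.87 to 6.59 CPM in Neat1 null and 3.76 to 12.7 CPM in wild-type libraries.

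A list of other mesenchymal transcription factors, from homeobox to GATA genes, gave 5 lower and 0 higher of 41 tested, with a median of -0.52, near the -0.45 of the members. Examples are Osr1, a factor of kidney and limb mesenchyme (-2.84, SE 0.69, adjusted p = 0.0198), and Gata6 with means of 9.83 and 28.6 CPM in Neat1 null and wild-type libraries (-1.54, SE 0.38, adjusted p = 0.0204). Other genes of the list had positive values and were not called, among them Twist2 (1.18, adjusted p = 0.0929) and Runx3 (1.38, adjusted p = 0.0927). With DESeq2 or without Neat1 null library 1, 1 gene was called higher, and without Neat1 null library 2, 2 were. Without Neat1 null library 3, wild-type library 3 or wild-type library 4 none of the 5 lower genes was called.

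The number of members at 1 CPM or more was 46, 48, 44 and 48 in Neat1 null libraries 1 to 4 and 47, 49, 54 and 53 in wild-type libraries 1 to 4. Wild-type libraries 3 and 4 had the most, and the Sox family gave much of it, with 5 Sox genes in every Neat1 null library and 5, 6, 9 and 8 in wild-type libraries. Sox7, an endothelial and endodermal factor, was among the members that did not pass the filter. It had 0.270, 0.235, 0.212 and 0.157 CPM in Neat1 null and 0.318, 0.155, 2.14 and 1.87 CPM in wild-type libraries, high only in wild-type libraries 3 and 4. Endothelial markers summed to 0.359 to 2.60 CPM in Neat1 null and 5.04 to 44.3 CPM in wild-type libraries, and 0 of the 2 tested were called. Kdr averaged 1.09 and 4.53 CPM in Neat1 null and wild-type libraries (-2.01, adjusted p = 0.0736), and Cdh5 had -0.33 (adjusted p = 0.796). With DESeq2, without wild-type library 1 and with the replicate block, 1 endothelial marker was called lower. Emcn alone gave 16.7 and 39.7 CPM in wild-type libraries 1 and 3 and was near 0 in wild-type libraries 2 and 4, unlike Sox7. The part of endothelial cells in these values was not tested.

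The 11 members with no count in any library were Foxb1, Foxi1, Foxi2, Foxn4, Foxr1, Pax4, Pax8, Sox1, Sox14, Sox17 and Tbx19. Over all 8 libraries a count of 0 allows a level of up to 0.0110 CPM, taken as 3 counts and covering counting error only. Of the 58 tested members 52 reached the filter minimum in all 4 wild-type libraries and 44 in all 8, and of the 9 called members 9 and 5 did so. The other 4 called members (Tbx6, Sox5, Lhx9 and Six2) were under the minimum in 1 or more Neat1 null libraries, so the filter bears on them. The minimum applies to CPM on raw library sizes, whereas the CPM values printed here use scaled sizes. Lhx9, with 12 counts in Neat1 null library 3, was thus under it there although its printed value is 0.423 CPM.

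How far the 9 calls depend on single libraries was compared across the alternative analyses. Without Neat1 null library 3 or without wild-type library 3 only Tbx20 and Lhx8 were called, and without wild-type library 4 only Tbx20 was. All genes called then numbered 13, 18 and 11, against 2356 with all libraries, so the loss was not particular to these families. With library sex as a term, the genotype difference rests on the 1 female Neat1 null library. In that fit the median log2 fold change was -1.27 over the tested members and -0.26 over all genes. Foxj3 (-2.05), Foxo1 (-1.74), Pax3 (-1.93) and Foxp4 (1.38), not called in the main fit, moved further from 0 with this term. Six2, Sox5 and Tbx6 were no longer called in that fit. None of the 9 changed sign under any of the 17 alternatives.

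**Figure D5:**
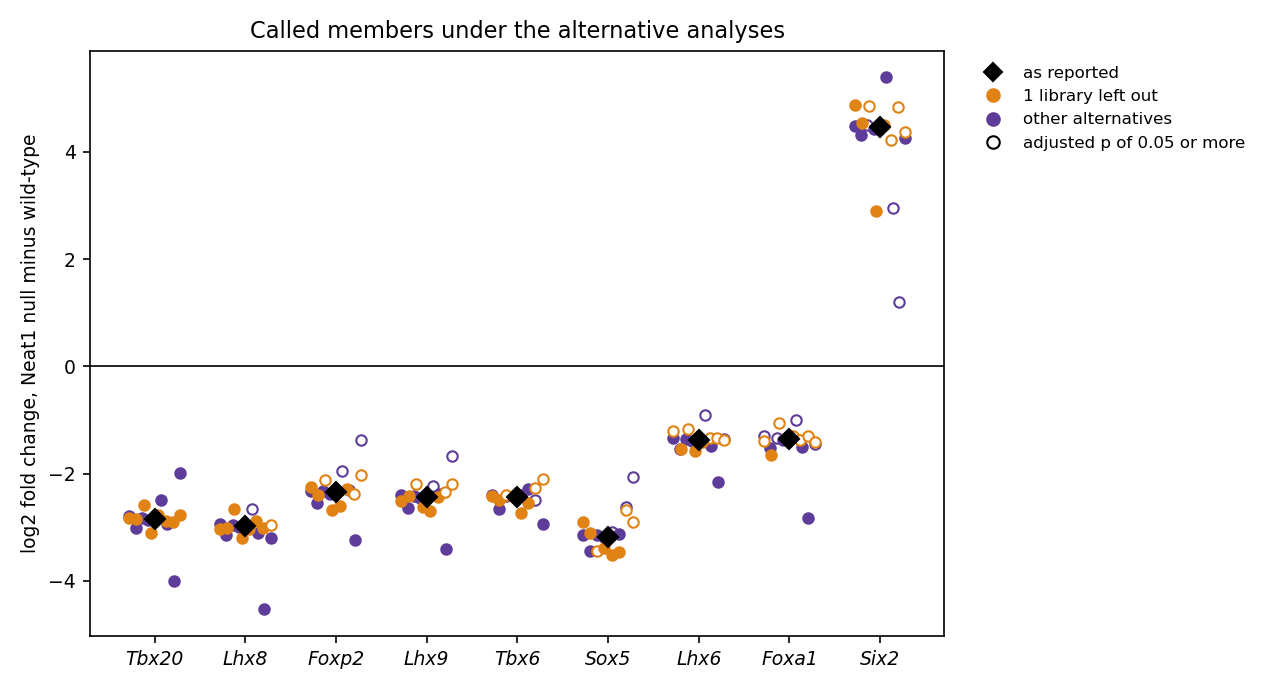
Log2 fold change (y axis, Neat1 null minus wild-type) of the 9 called members as reported, with 1 library left out, and under the other alternatives. Tbx20 stays between -3.99 and -1.98 and every point of the 8 lower members lies below 0, while Six2 ranges over the widest span above 0.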

How the data were processed

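RNA was sequenced from 8 libraries, 4 Neat1 null and 4 wild-type, made with a stranded TruSeq kit per the labels' protocols. The authors deposited raw counts per gene symbol, 1 file per library, and these entered the tests unchanged. CASAVA 1.8, STAR, DESeq2 and the mm10 build are named, without roles, in the submitters' processing notes. Which counter, strand setting and annotation were used is not given in the sources used here. Reads outside genes, 5.48% to 11.0% of deposited counts in Neat1 null and 9.83% to 15.7% in wild-type libraries, and reads ambiguous between genes, 1.34% to 1.76% and 1.09% to 1.22%, were left out.

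Genes were kept with filterByExpr (minimum count 10, here 0.309 CPM on raw library sizes in at least 4 libraries), which left 13316 of 23420. Libraries were scaled with TMM factors and tested with edgeR 4.0.16 in R 4.3.3 (robust quasi-likelihood test, 2-sided, genotype as the only term), adjusted over all tested genes by Benjamini-Hochberg at 0.05. CPM values use TMM library sizes, and per-kb values divide by merged exon length. The standard error is the log2 fold change over the square root of F. The fit was tested on simulated data.

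The members and the lists were chosen with earlier results of these data known. Lists are described by counts and medians only, without a test. Genes are named by rule: Neat1, every called member, up to 3 members per family with the highest CPM per kb, members whose groups do not overlap, and up to 3 called genes per list with the smallest p. Members beside the threshold, near another member on the chromosome, or with a wide spread are further descriptions, chosen after their values were seen. Some genes that this rule names are not reported here.

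Alternatives were RLE and upper-quartile factors, no low-count filter, at least 1 CPM in 4 libraries, DESeq2 1.42.0, each library left out, Neat1 null libraries 1 and 3 left out, replicate number as a block, library sex as a term, and a length and GC correction (splines with 5 degrees of freedom). Counts in genes ranged from 19651035 to 38950207 per library, and within a genotype the chi-square per degree of freedom between libraries was never under 59.3.

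Positions and exon lengths are from GENCODE M21 on GRCm38, the assembly also called mm10, 1-based; 21777 symbols matched directly, 1278 by a synonym and 365 not at all. Promoters are from RefSeq on GRCm38.p6 and matched 70 members, 41 of them tested. They were searched on both strands, overlaps allowed, for 6 motifs, namely the T-box motif AGGTGT, the forkhead motif GTAAACA, the Sox motif CATTGT, the LIM homeobox motif TAATTA, the TATA box TATAAA and the GC box GGGCGG. Among tested members 18 share exon sequence with another annotated gene, and 2 called ones do: Lhx6 (104 bases, same strand) and Sox5 (1330 bases with Sox5os1, other strand). Part of their counts is therefore uncertain.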

Additional observations from a re-analysis of the deposited data

Results flagged for a closer look

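In a group of 4 libraries, 1 library was taken to stand apart where its gap to the nearest other library, over the range of the group, passed Dixon's critical value. Chance sets apart about 5% of groups, and 6 of the 64 groups examined, over 29 members, Neat1 and library measures, had such a library. Foxm1 had 187 CPM in Neat1 null library 3, with the next at 104 CPM, and Six5 had 13.9 CPM in the same library, with the next at 4.67 CPM. Foxj2 had 41.6 CPM in wild-type library 2, with the next at 30.2 CPM, and Sox12 had 54.9 CPM in that library, with the next at 46.0 CPM. Pax9 had 14.6 CPM in wild-type library 3, with the next at 10.3 CPM. The ribosomal RNA gene Rn45s took 5.23% of counts in Neat1 null library 1, with the next Neat1 null library at 0.596%. None of these 5 members was called between genotypes.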

How the results depend on the processing

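As reported, 1 member was higher and 8 were lower, with 2356 genes called in all. The number higher was 2 with RLE factors, without a filter and with the replicate block, 3 with DESeq2 and 3 with library sex as a term, and 0 to 2 with 1 library left out. The number lower was 16 with library sex as a term, 5 after the length and GC correction, 1 without Neat1 null libraries 1 and 3, and 1 to 9 with 1 library left out. All genes called numbered 11 to 2965 with 1 library left out, 7 without Neat1 null libraries 1 and 3, 3433 with DESeq2, 3379 with sex as a term and 1666 with the correction. The cause of these shifts was not tested. With the replicate block 8 members were lower and 2245 genes were called. Same-numbered libraries correlated at -0.258 to 0.317 in their deviations from the group means, and not every library correlated best with its own number. The numbers were therefore not used as pairs in the main fit. Whether same-numbered libraries shared any handling was not tested. Under the block Six2 had 2.95 and was not called (adjusted p = 0.359), and Tbx1 had 2.86 and was (adjusted p = 0.00234). Tbx15 changed direction with library sex as a term (-2.55, adjusted p = 0.0386). With upper-quartile factors the median of all genes moved to -0.24 and that of the members to -0.63, the split of all calls became 1036 higher and 1428 lower, against 1328 and 1028, and 1 member was higher and 9 lower. The correction gave 1017 genes higher and 649 lower. Sox5 and Tbx6 were not tested at 1 CPM in 4 libraries. Members that did not reach about 0.309 CPM in at least 4 libraries were not tested, among them some that were higher in fewer libraries, such as Tbx4 and Sox7.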
